A study of Mus musculus with 8 samples.

Results

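The voltage-gated potassium (Kv) channel subunit genes were examined in RNA-seq of the mouse hippocampus with and without SAP97, a synaptic scaffold encoded by Dlg1. The genes were chosen by symbol, as the pore-forming, electrically silent, beta and KChIP subunits of Kv channels. This gave 47 of the 25834 genes in the deposited table, by a rule on symbols that uses no measured value, though it was set with earlier results of these data known. Of these, 44 had a mean of 10 or more counts over the libraries and were tested. The other 3, Kcna7, Kcna10 and Kcnv2, are given as counts only. Hippocampal tissue came from males, 4 of them controls and 4 SAP97-cKO, and each mouse gave 1 library. SAP97-cKO mice were Nestin-cre+/-; SAP97 fl/fl, so that Cre acts in the cells and descendants of cells that use the Nestin promoter, mainly neural progenitors. Controls were littermates that carried Nestin-cre alone, carried the floxed allele alone or were wild-type, and neither the genotype behind each control library nor the age of the sequenced mice is stated in the sources used here. No treatment is listed for any mouse.

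Kv channels open when a neuron depolarises and let potassium leave the cell, which ends the action potential and sets how fast the next one can follow. A channel is built from pore-forming subunits, grouped as Kv1 to Kv12, and each group passes current with its own speed and voltage range. Electrically silent subunits (Kcnf, Kcng, Kcns and Kcnv) form channels only together with Kv2 subunits, cytoplasmic beta subunits attach to Kv1 channels, and KChIPs attach to Kv4 channels. SAP97 and its relatives bind the C-terminal ends of several Kv1 subunits through their PDZ domains. The study screened Kcna3, Kcna4, Kcna5 and Kcnc1 as SAP97 interactor genes by qPCR, so these are shown in full.

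Each library held 37388177 to 37426572 raw counts, and the Kv genes took 0.353% to 0.446% of them in controls and 0.411% to 0.457% in SAP97-cKO mice. Dlg1 was lower in each SAP97-cKO library (2009 to 3065 counts) than in each control library (3983 to 4690). Its log2 fold change was -0.86 ± 0.12 (standard error), at an edgeR adjusted p (false discovery rate, FDR) of 0.149. This value is for the whole gene, over all its exons. For reads on a single Dlg1 exon the study reported a far larger fall, and by western blot it found less SAP97 protein in the hippocampus. Dlg1 lies on chromosome 16, which carries 0 of the 47 Kv genes. All counts given here are scaled by edgeR's TMM factors unless called raw. Because whole hippocampus was sequenced, fewer cells of a type and less RNA per cell cannot be told apart in any value.

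Levels were compared between genes as CPM per kb, the scaled count relative to library size and to kilobases of annotated exon. On this scale the most abundant member in controls was Kcnab2, the Kv beta2 subunit, at a mean of 133 CPM per kb. Other abundant members were Kcnip2 (KChIP2, a partner of Kv4) at 46.6, Kcnd2 (Kv4.2, the dendritic A-type channel of pyramidal cells) at 28.1 and Kcnip3 (KChIP3) at 26.6 CPM per kb. Kcna1 (Kv1.1) and Kcna2 (Kv1.2), which sit together on axons, had nearly equal control levels of 19.7 and 19.4 CPM per kb. The given markers Kcna1, Kcna2 and Kcnd2 were thus all well above the count floor, with 2517 counts or more in every library. The least abundant tested member was Kcnq1, at 0.15 CPM per kb. The exon length adds up all annotated isoforms, so a gene whose main transcript is short relative to that sum is understated on this scale.

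**Figure D1:**
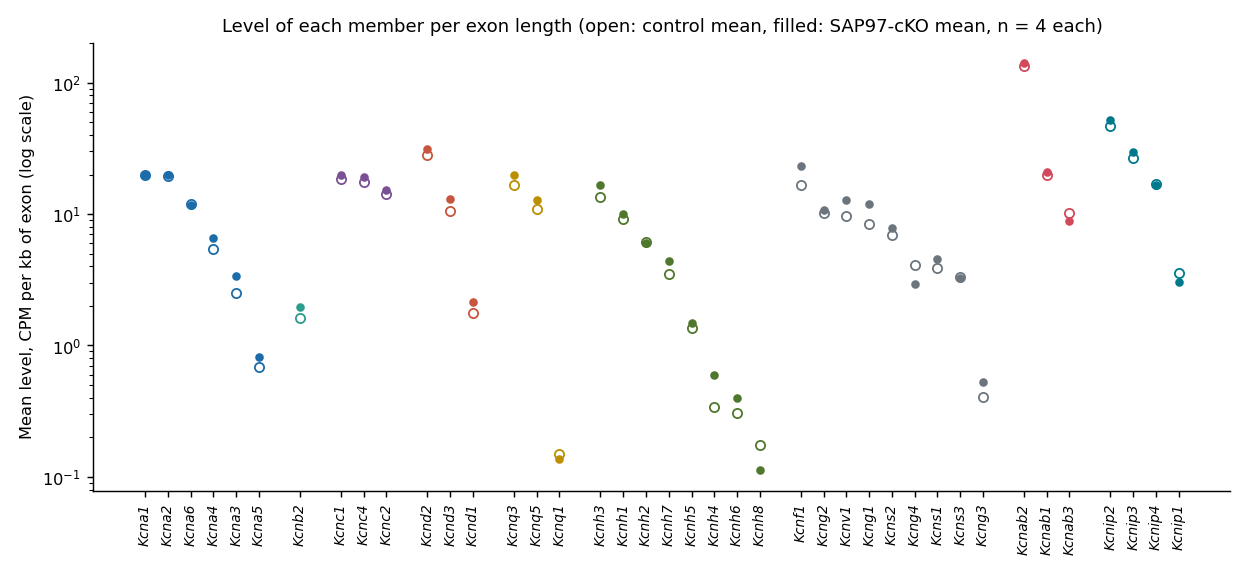
Mean level of 40 of the 44 tested members in CPM per kb of exon (log axis), by subunit family, with open points for controls and filled points for SAP97-cKO mice (n = 4 each). Kcnab2 stands highest at 133 and 141 CPM per kb, and for each gene the distance between its points is small relative to the range of levels on the axis, down to 0.15 for Kcnq1 in controls.

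Some families were led by a single member. Kcnd2 held 69.5% ± 1.58 (SD, n = 4) of the Kv4 level in controls and 66.9% ± 6.01 in SAP97-cKO mice. Among the beta subunits Kcnab2 held 81.6% ± 1.47 and 82.5% ± 1.14. These shares moved by less than 1 SD of the more variable group. The Kv1 level was spread more evenly, with Kcna1 at 32.8% ± 2.57, Kcna2 at 32.2% ± 2.97 and Kcna6 at 20.2% ± 2.53 in controls, against 31.6% ± 3.35, 32.1% ± 0.845 and 18.9% ± 2.41 in SAP97-cKO mice. Kcna4 held 9.26% ± 1.81 of it in controls and 10.6% ± 1.15 in SAP97-cKO mice.

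No Kv gene passed the FDR threshold of 0.25 that the study used, in edgeR or in limma-voom. Of the 44 members, edgeR called 0 higher and 0 lower, where 0.00616% of all 16241 genes tested were called higher and 0.209% lower. At an unadjusted p under 0.05, 8 members (18.2%) were higher in SAP97-cKO mice and 0 were lower. Over all genes tested, 4.78% were higher and 7.02% were lower at that p. The 8 were Kcnh3, Kcna4, Kcng1, Kcnd3, Kcnh4, Kcna3, Kcnd1 and Kcnv1. Fold changes were above 0 for 34 of the 44 members (77.3%), compared with 47.2% of all genes tested, and the median log2 fold change was 0.15 for the members and -0.01 for all genes. In 2 members, Kcna4 and Kcnh3, every SAP97-cKO library lay above every control library (4.55% of members). Over all genes, 2.79% had groups that did not overlap in that direction and 3.48% in the other, and no member was of the second kind.

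These calls depended on the tool and on single libraries. DESeq2 put 7 members past an FDR of 0.25, all higher (Kcna3, Kcna4, Kcnd3, Kcng1, Kcnh3, Kcnh4 and Kcnv1), where 2.73% of all genes were called higher. In edgeR without control 1, 8 members were called higher against 4.58% of all genes, and without SAP97-cKO 1, 5 were called higher against 1.42%. Kcna4, Kcnd3, Kcng1 and Kcnh3 were in each of these lists. A fit chosen after seeing the data left out controls 3 and 4 and SAP97-cKO 2, the libraries most often highest or lowest among the members. That fit compared controls 1 and 2 with SAP97-cKO 1, 3 and 4. It left 2 members at an unadjusted p under 0.05, Kcna4 and Kcnh3, with 33 of 44 members above 0. That was 4.55% of members, where 8.45% of all genes were under that p in the same fit, in either direction. With few libraries, chosen from the members' own values, this fit cannot tell lost power from dependence on the libraries left out.

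**Figure D2:**
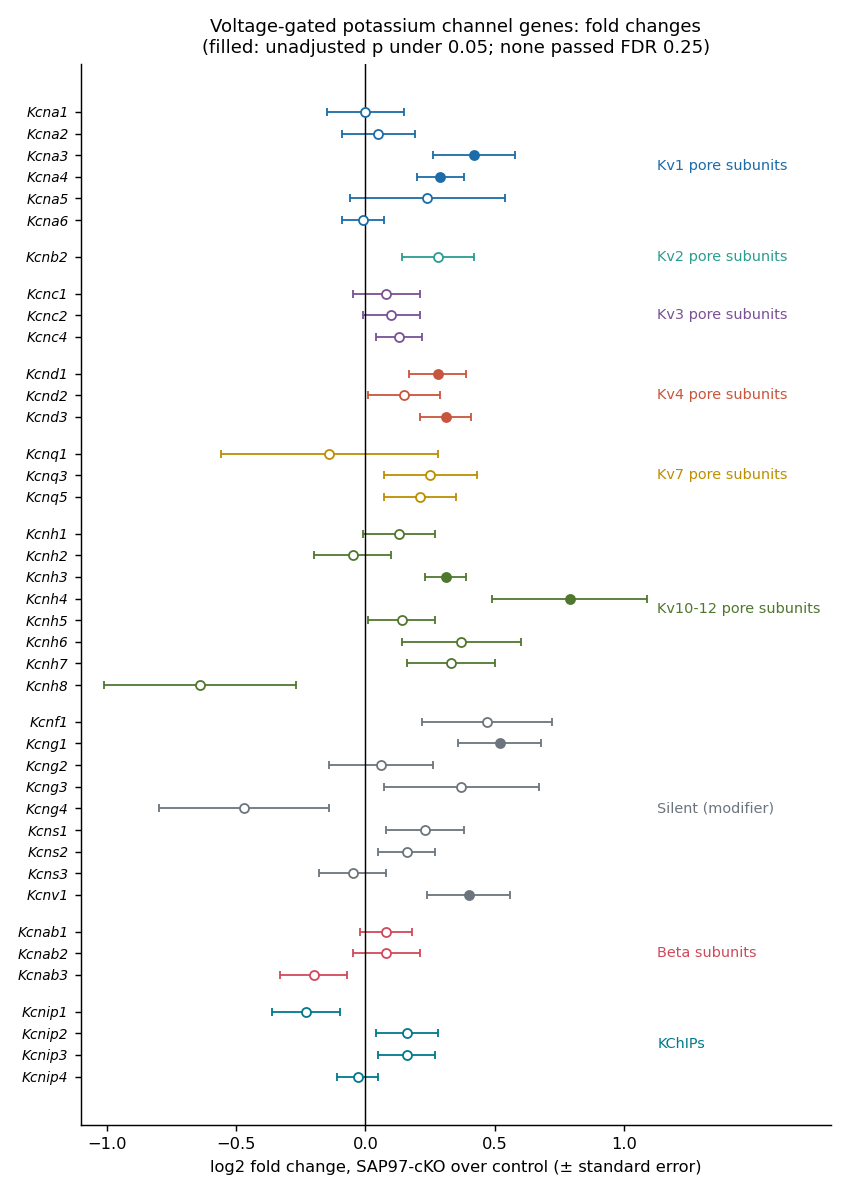
Log2 fold change (SAP97-cKO over control, edgeR) of 40 of the 44 tested members by family, with bars of 1 standard error and filled points for an unadjusted p under 0.05. The points lie mostly to the right of 0, from -0.64 for Kcnh8 to 0.79 for Kcnh4, and none passed an FDR of 0.25.

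Kcnh3 encodes Kv12.2, a pore subunit found mainly in forebrain neurons. It had 3226, 2898, 2508 and 2884 counts in controls 1 to 4 and 3571, 3600, 3501 and 3614 in SAP97-cKO 1 to 4. The SAP97-cKO libraries lay within a narrow band above all controls. Their mean of 3572 ± 50.4 (SD, n = 4) was 124% of the control mean of 2879 ± 294. The log2 fold change was 0.31 (standard error 0.08, 95% interval 0.14 to 0.48, adjusted p = 0.319 from edgeR). An exact two-sided permutation test gave p = 0.0286, the smallest that 4 mice against 4 allow. Kcnh3 (ENSMUSG00000037579) lies at chr15:99224861-99242817 of GRCm38, plus strand.

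Kcna4 encodes Kv1.4, the A-type member of the Kv1 family, found on hippocampal axons. Its counts were 972, 1047, 890 and 1001 in controls and 1113, 1105, 1364 and 1214 in SAP97-cKO mice. The groups did not overlap, and SAP97-cKO 3 was highest. Means were 977 ± 66.2 and 1199 ± 121 (SD, n = 4), so the SAP97-cKO mean was 123% of control. The log2 fold change was 0.29 (standard error 0.09, interval 0.10 to 0.49, adjusted p = 0.331 from edgeR), with p = 0.0286 in the exact permutation test. Kcna4 (ENSMUSG00000042604) lies at chr2:107290639-107298502, plus strand. With 4 mice against 4, this test falls under 0.05 only where the groups do not overlap, so it restates that separation and adds no further evidence. Of the 8 members at an unadjusted p under 0.05 in edgeR, this held for Kcnh3 and Kcna4 alone. For Kcng1, Kcna3, Kcnd1 and Kcnh4 the exact permutation test gave p = 0.0571. For Kcnd3 the exact permutation test gave p = 0.0857. For Kcnv1 the exact permutation test gave p = 0.114.

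Kcna3, encoding Kv1.3, had 230, 156, 151 and 179 counts in controls and 196, 260, 234 and 271 in SAP97-cKO mice. Control 1 lay above SAP97-cKO 1, so the groups overlapped, and the log2 fold change was 0.42 (standard error 0.16, interval 0.06 to 0.79, adjusted p = 0.38 from edgeR). Kcna5, encoding Kv1.5, had 76.0, 63.8, 69.9 and 85.4 counts in controls and 75.4, 143, 83.1 and 45.7 in SAP97-cKO mice. Its highest and its lowest library were both SAP97-cKO mice, and the log2 fold change was 0.24 (standard error 0.30, interval -0.43 to 0.90). Without SAP97-cKO 2 it was -0.12. For Kcnc1, encoding the fast Kv3.1 of interneurons, counts were 7109, 6797, 7655 and 4820 in controls and 6963, 6431, 7298 and 7181 in SAP97-cKO mice. Control 4 was the lowest by far and control 3 the highest of the 8 libraries, and controls 1 and 2 lay among the SAP97-cKO libraries. The log2 fold change was 0.08 (standard error 0.13, interval -0.20 to 0.36), and -0.045 without control 4. Of the 4 Kv genes in the study's qPCR screen, then, Kcna3 and Kcna4 were higher at an unadjusted p under 0.05. Kcna5 and Kcnc1 were not, and none of the 4 passed the FDR threshold in edgeR with all libraries. By qPCR the study itself found no difference in hippocampal mRNA between genotypes for the genes of that screen.

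Kcna1 and Kcna2 showed no difference beyond their spread. Kcna1 had 3638, 3626, 4315 and 2517 counts in controls and 3871, 2866, 3550 and 3836 in SAP97-cKO mice. Kcna2 had 8905, 9239, 10470 and 5920 counts in controls and 9579, 8663, 8613 and 8842 in SAP97-cKO mice. For both genes control 3 was the highest and control 4 the lowest of the 8 libraries. The log2 fold changes were 0.00 (standard error 0.15, interval -0.34 to 0.34) and 0.05 (standard error 0.14, interval -0.27 to 0.37). Differences inside those intervals were not excluded. Both fold changes changed sign without control 4, to -0.13 and -0.096. For Kcna6 (Kv1.6), next to Kcna1, the value was -0.01 (standard error 0.08), and 2355 of its exon bases are shared with Gm26673 on the opposite strand. The sources used here do not state the strand setting of the counting, so reads of such pairs cannot be told apart.

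All 3 Kv4 genes had positive fold changes. Kcnd3 (Kv4.3) had 4223, 3664, 3962 and 3229 counts in controls and 3900, 5004, 4901 and 4902 in SAP97-cKO mice. SAP97-cKO 1 lay within the controls and the other SAP97-cKO libraries above them, with a log2 fold change of 0.31 (standard error 0.10, interval 0.08 to 0.54, adjusted p = 0.349 from edgeR). Kcnd1 (Kv4.1) had 398, 328, 356 and 314 counts in controls and 384, 429, 469 and 412 in SAP97-cKO mice. Only control 1 and SAP97-cKO 1 overlapped, and the log2 fold change was 0.28 (standard error 0.11, interval 0.04 to 0.52, adjusted p = 0.38 from edgeR). Kcnd2 had 5913, 5706, 5808 and 4272 counts in controls and 7041, 4536, 6195 and 6296 in SAP97-cKO mice. Its lowest libraries were control 4 and SAP97-cKO 2, and the log2 fold change of 0.15 (standard error 0.14, interval -0.16 to 0.46) was 0.051 without control 4. The KChIPs that attach to Kv4 gave values on both sides of 0, at 0.16 (standard error 0.12) for Kcnip2, 0.16 (0.11) for Kcnip3, -0.03 (0.08) for Kcnip4 and -0.23 (0.13) for Kcnip1. Kcnip2, the most abundant, ranged from 5235 to 7112 counts in controls and from 5514 to 7718 in SAP97-cKO mice.

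**Figure D3:**
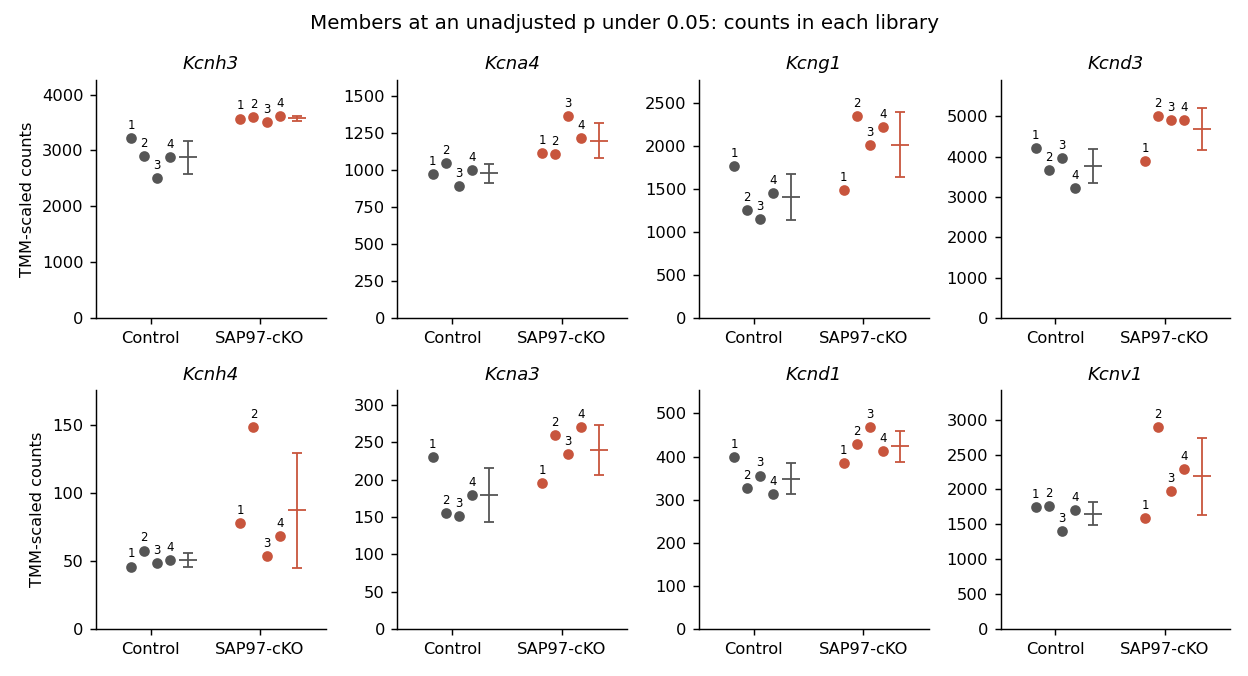
TMM-scaled counts in each library for the 8 members at an unadjusted p under 0.05, with replicate numbers on the points and the mean and SD of each group (n = 4) beside them. The groups separate fully for Kcnh3 and Kcna4, SAP97-cKO 1 lies within the controls for Kcnd3, and SAP97-cKO 2 is the highest point for Kcnh4, Kcng1 and Kcnv1.

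The silent subunits were also mostly above 0 in log2 fold change. Kcnb2 (Kv2.2), of the Kv2 family that they join, gave 0.28 on the log2 scale (standard error 0.14, interval -0.02 to 0.59). Its counts were 973, 1032, 986 and 679 in controls and 1328, 1101, 1008 and 1023 in SAP97-cKO mice, with control 4 far below the rest. Among the 9 silent subunits tested, 7 were above 0 and 2 below. Kcng1 (Kv6.1) had 1765, 1259, 1150 and 1460 counts in controls and 1486, 2348, 2012 and 2226 in SAP97-cKO mice. SAP97-cKO 1 lay within the controls, and the mean in SAP97-cKO mice was 143% of control, with a log2 fold change of 0.52 (standard error 0.16, interval 0.16 to 0.88, adjusted p = 0.338 from edgeR). Kcnv1 (Kv8.1) had 1750, 1760, 1405 and 1701 counts in controls and 1587, 2898, 1975 and 2290 in SAP97-cKO mice. The groups overlapped at SAP97-cKO 1, and the log2 fold change was 0.40 (standard error 0.16, interval 0.05 to 0.76, adjusted p = 0.386 from edgeR). Kcnf1 (Kv5.1), the most abundant silent subunit, had 3207, 2632, 2447 and 3676 counts in controls and 2705, 6680, 3747 and 3475 in SAP97-cKO mice. A single library, SAP97-cKO 2, stood far above the others. Its log2 fold change of 0.47 (standard error 0.25, interval -0.07 to 1.02) was 0.15 without SAP97-cKO 2, where that of Kcnv1 was 0.24 and that of Kcng1 0.44. The other silent subunits had log2 fold changes of 0.37 (standard error 0.30) for Kcng3, 0.23 (0.15) for Kcns1, 0.16 (0.11) for Kcns2, 0.06 (0.20) for Kcng2, -0.05 (0.13) for Kcns3 and -0.47 (0.33) for Kcng4.

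In the EAG, ERG and ELK group (Kcnh1 to Kcnh8, Kv10 to Kv12), 6 of 8 members were above 0. Kcnh4 (Kv12.3) had 46.0, 57.8, 48.6 and 50.5 counts in controls and 78.4, 149, 53.7 and 68.5 in SAP97-cKO mice. SAP97-cKO 2 was the highest and SAP97-cKO 3 lay below control 2. The log2 fold change was 0.79 (standard error 0.30, interval 0.12 to 1.45, adjusted p = 0.376 from edgeR), the largest of the 44 members, and was 0.40 without SAP97-cKO 2. Kcnh8 (Kv12.1) was the most negative, at -0.64 (standard error 0.37, interval -1.45 to 0.18), with 52.4 counts in control 3 and 15.6 to 26.5 in the other libraries. Kcnh1 (Kv10.1) and Kcnh7 (Kv11.3) gave 0.13 (standard error 0.14) and 0.33 (standard error 0.17), and both were lowest in control 4. Kcnh6 (Kv11.2) gave 0.37 (standard error 0.23), Kcnh5 (Kv10.2) 0.14 (0.13) and Kcnh2 (Kv11.1, the ERG1 channel) -0.05 (0.15). Kcnh7 shares 696 exon bases with Gca on the opposite strand.

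In the Kv7 family, Kcnq3 (Kv7.3, a subunit of the slow M-current) gave 0.25 (standard error 0.18), Kcnq5 (Kv7.5) 0.21 (0.14) and the scarce Kcnq1 -0.14 (0.42). Kcnq3 ranged from 5701 to 11048 counts in controls and from 9347 to 12664 in SAP97-cKO mice, with its lowest value in control 4. In the Kv3 family, Kcnc2 (Kv3.2) gave 0.10 (standard error 0.11). Among the beta subunits, Kcnab2 ranged from 26580 to 30533 counts in controls and from 21779 to 33947 in SAP97-cKO mice. Its log2 fold change was 0.08 (standard error 0.13, interval -0.20 to 0.36), with 0.08 (0.10) for Kcnab1 and -0.20 (0.13) for Kcnab3. Of the untested members, Kcna10 had 1 to 2 raw counts in each control and 0 in each SAP97-cKO library, a count of 0 that allows up to 3 counts. Kcna7 had 0 to 3 raw counts in a library, and Kcnv2 had 1 to 7.

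Several members lie near one another in the genome, grouped here where the gap between neighbouring members was at most 2 Mb. A stretch of chromosome 3 (GRCm38, chr3:105452330-107459552) holds 5 of them, Kcnd3, Kcna3, Kcna2, Kcna10 and Kcnc4. Within it, Kcnd3, Kcna3 and Kcna2 had log2 fold changes of 0.31, 0.42 and 0.05, and Kcnc4 (Kv3.4) had 0.13 (standard error 0.09). On chromosome 6, Kcna5, Kcna1 and Kcna6 lie within 208 kb, with log2 fold changes of 0.24, 0.00 and -0.01.

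The promoters of the members at an unadjusted p under 0.05 are shown where RefSeq windows (GRCm38.p6) were given, from 250 bases before to 50 bases after the annotated start. These are 4 of the 8, and GGGCGG or its reverse complement CCGCCC, the core of the GC box, is in capitals.
Kcna4, chr2:107290339-107290638, plus strand: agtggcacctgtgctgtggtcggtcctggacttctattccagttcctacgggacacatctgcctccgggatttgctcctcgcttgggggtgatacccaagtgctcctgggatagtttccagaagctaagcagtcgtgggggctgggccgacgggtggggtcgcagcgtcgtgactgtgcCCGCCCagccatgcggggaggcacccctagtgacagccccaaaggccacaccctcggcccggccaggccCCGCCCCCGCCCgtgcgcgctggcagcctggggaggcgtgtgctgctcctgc
Kcna3, chr3:107035912-107036211, plus strand: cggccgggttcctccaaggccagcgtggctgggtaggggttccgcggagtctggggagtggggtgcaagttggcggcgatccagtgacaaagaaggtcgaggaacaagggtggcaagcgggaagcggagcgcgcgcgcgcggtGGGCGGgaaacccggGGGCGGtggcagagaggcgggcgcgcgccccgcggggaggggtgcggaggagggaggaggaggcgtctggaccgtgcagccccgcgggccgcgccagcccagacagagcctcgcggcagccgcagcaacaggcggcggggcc
Kcnd3, chr3:105451640-105451939, plus strand: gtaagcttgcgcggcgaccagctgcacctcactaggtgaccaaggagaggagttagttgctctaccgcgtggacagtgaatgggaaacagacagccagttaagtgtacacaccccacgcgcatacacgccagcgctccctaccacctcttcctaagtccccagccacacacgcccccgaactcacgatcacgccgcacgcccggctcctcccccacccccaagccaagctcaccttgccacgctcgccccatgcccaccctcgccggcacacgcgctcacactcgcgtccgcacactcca
Kcnh4, chr11:100759729-100760028, minus strand: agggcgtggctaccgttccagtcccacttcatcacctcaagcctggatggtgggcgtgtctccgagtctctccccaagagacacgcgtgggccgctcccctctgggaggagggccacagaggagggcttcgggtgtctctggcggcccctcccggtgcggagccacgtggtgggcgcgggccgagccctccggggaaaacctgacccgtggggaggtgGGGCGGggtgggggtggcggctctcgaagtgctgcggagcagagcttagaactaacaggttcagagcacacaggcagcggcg
The Kcna4 window held 3 copies of the motif, that of Kcna3 2, that of Kcnh4 1 and that of Kcnd3 0. GC content was 67.7%, 75.0%, 68.7% and 64.0% in that order of genes. Over the 45 windows of 31 members, 53.3% held GGGCGG on either strand, compared with 35.7% of all 32851 windows, and the median GC content was 61.3% against 52.7%. TATAAA was in 2.22% of the member windows and 13.6% of all windows, CCAAT in 31.1% and 37.4%, CACGTG in 6.67% and 7.15%, and TGACGTCA in 0 of the member windows and 1.79% of all. These motifs were searched on both strands, and windows of a gene with several starts can overlap.

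The highest and lowest values of the members gathered in a few libraries. Among the 44 members, control 4 was the lowest library for 19 and the highest for 0. Without control 4, 30 of the 44 had a log2 fold change above 0, compared with 34 in the fit of all libraries. Leaving out any other single library gave 33 to 38. Control 3 was highest for 8 and lowest for 10, and SAP97-cKO 2 was highest for 12 and lowest for 6. SAP97-cKO 1 was highest for 11. The genes lowest in control 4 included Kcna1, Kcna2, Kcnb2, Kcnc1, Kcnd2 and Kcnq3. SAP97-cKO 2 was lowest for Kcnab1, Kcnab2, Kcnab3, Kcng2, Kcng4 and Kcnip4 while highest for Kcnf1, Kcng1, Kcnh4 and Kcnv1.

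**Figure D4:**
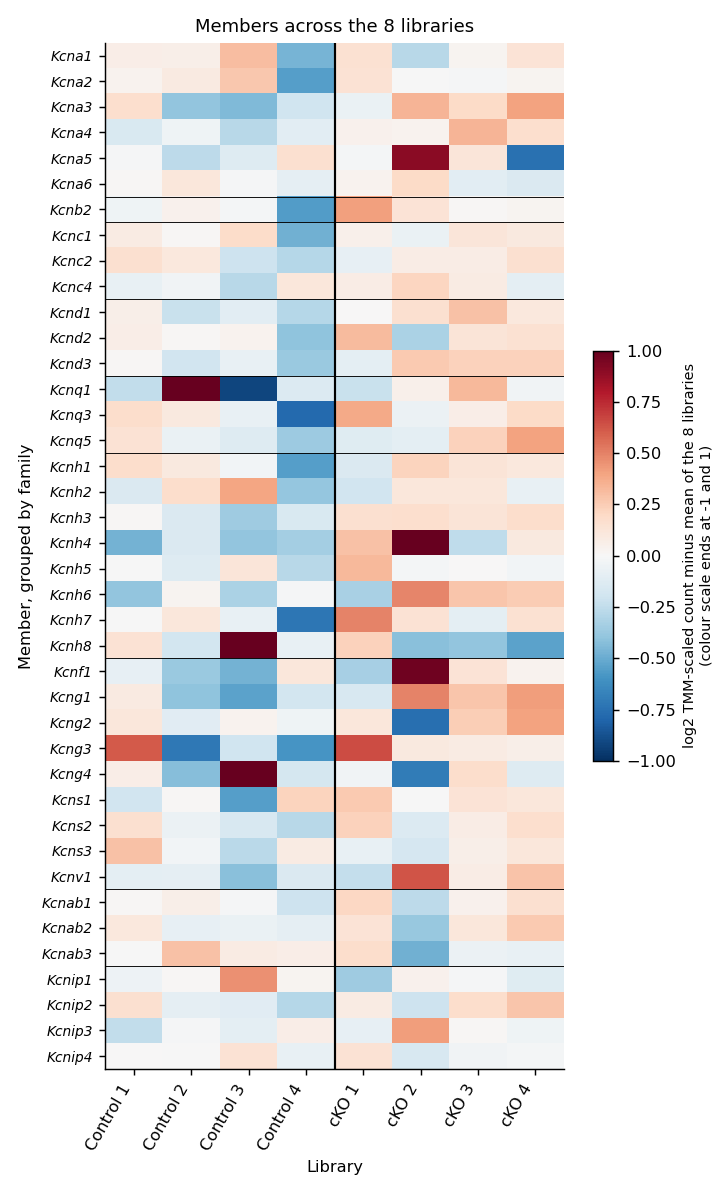
Log2 TMM-scaled count of 40 of the 44 tested members in each library minus the gene's mean over the 8 libraries, by family (colour scale from -1 to 1). Control 4 is mostly blue, and control 3 and SAP97-cKO 2 show strong colours of both kinds, including Kcng4 and Kcnh8 in control 3 and Kcnf1 and Kcnh4 in SAP97-cKO 2.

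Marker genes of cell types and regions differed between the same libraries. The summed level of 5 dentate granule cell markers was 8308 counts in SAP97-cKO 2 and 12998 to 20292 elsewhere, with none of the 5 at 0. The sum of 5 thalamus or habenula markers was 3573 in control 3 and 1379 to 2034 elsewhere. Control 3 was also the highest for Kcng4 (Kv6.4, 1084 counts against 285 to 523), Kcnip1 (1037 against 593 to 781) and Kcnh8. The 7 oligodendrocyte markers summed to 204808 to 329922 in controls, to 289660 in SAP97-cKO 1 and to 160351 to 174755 in SAP97-cKO 2 to 4. All 7 were below 0 in log2 fold change, and 4 were at an unadjusted p under 0.05. The 7 meningeal fibroblast markers were also all below 0, and 2 of them passed the FDR threshold. The 5 erythroid and 5 endothelial markers were all below 0 too, with median log2 fold changes of -0.55 and -0.19. Of 5 microglia markers, 3 were above 0 and 2 below. The erythroid markers summed to 5644 counts in control 4 and 1956 to 3170 elsewhere. All 8 choroid plexus markers were below 0, with a median of -1.48 and 0 of them at an unadjusted p under 0.05. They summed to 3680 to 254405 counts, with the highest sum in control 2. That library was also the highest for the low-count Kcnq1 (45.8 against 10.7 to 25.3). However, control 3, with the next highest sum (141908), was the lowest for Kcnq1 (10.7). The part of these differences in the Kv values was not tested.

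Fold changes were above 0 for 4 of 5 neuron markers too. Of these, Camk2a, Slc17a7 and Rbfox3 were higher at an unadjusted p under 0.05 and 0 passed the FDR threshold, with log2 fold changes of 0.28, 0.24 and 0.19. Syt1 had 0.19 and Snap25, a general presynaptic gene, -0.03. The 4 CA1 pyramidal markers were all above 0, with a median of 0.30, and the 6 interneuron markers had a median of -0.05, with Pvalb at -0.56 (standard error 0.19). Astrocyte markers were above 0 as often as those of neurons, in 4 of 5. Of these, 2 were higher at an unadjusted p under 0.05 and 0 passed the FDR threshold. The 2 were Aqp4, the astrocyte water channel, at 0.43 and Gfap at 0.29. Slc1a2 had 0.11, Gja1 0.03 and Aldoc -0.13, and the median of the 5 was 0.11. The sum of the 5 astrocyte markers was 182615 to 213558 counts in controls and 192745 to 236775 in SAP97-cKO mice, with none at 0. The sum of the 5 neuron markers was 346307 to 384852 counts in controls and 381820 to 437706 in SAP97-cKO mice, with none at 0. Fold changes of Kcnh3 (0.31) and Kcna4 (0.29) were thus near that of Camk2a, the highest of the 5 neuron markers. Both were above the median of those markers, 0.19. Among the other members at an unadjusted p under 0.05, Kcnd3 (0.31) and Kcnd1 (0.28) were also near Camk2a. Kcnh4 (0.79), Kcng1 (0.52), Kcna3 (0.42) and Kcnv1 (0.40) were above all 5 neuron markers. The part of the neuron and astrocyte shares in the values of these members was not tested.

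Genes that assist or anchor Kv channels were counted in the same way. Of 26 listed partner genes, 25 were in the table and 24 were tested. None of them passed the FDR threshold, 3 were higher and 0 lower at an unadjusted p under 0.05, and 18 were above 0 with a median of 0.11. Over all genes tested, 4.78% were higher and 7.02% lower at that p. The 3 were Akap5, a kinase anchor of the postsynapse, at 0.36 (standard error 0.15), and the SAP97 relatives Dlg4 (PSD-95) at 0.21 (0.07) and Dlg2 (PSD-93) at 0.19 (0.07). At the protein level the study found no significant difference in hippocampal PSD-95 or PSD-93 between genotypes. Among the potassium channel genes outside the Kv families (inward rectifier, tandem-pore, calcium- and sodium-activated), 34 of 40 were tested, with 17 above 0, 17 below and a median of 0.00. At an unadjusted p under 0.05, 4 of these were higher and 2 lower, and 0 passed the FDR threshold.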

How the data were processed

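RNA from 4 control and 4 SAP97-cKO male hippocampi was sequenced. The authors aligned the reads with STAR 2.5.3a to mm10 (GRCm38.p5), resampled them to a common depth and counted them per gene with PORT 0.8.2a-beta, and deposited whole-number counts. The deposited table also holds the authors' own fold changes, p-values and q-values, which were not used. Groups came from the labels, and 4 mice per group are separate animals.

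Counts of 16241 genes with a mean of at least 10 were scaled by TMM. Genotypes were compared in R 4.3.3 by edgeR 4.0.16 (quasi-likelihood), and p-values were adjusted over all these genes by the Benjamini-Hochberg method, at an FDR threshold of 0.25. The standard error is the log2 fold change divided by the square root of F, and the 95% intervals use its degrees of freedom. Exact two-sided permutation tests ran over 70 assignments of libraries. The fit was tested on simulated data. Library pairs all differed beyond sampling noise. Coordinates and exon lengths are from GENCODE M21 (all 47 members matched).

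Genes shown library by library are those at an unadjusted p under 0.05, those whose groups did not overlap, Kcna1, Kcna2, Kcnd2, the Kv genes of the qPCR screen, and the most abundant member of each family (Kcnip2 and Kcnab2 by range). Values of 4 tested members are not reported here one by one, though all 44 enter the counts. The members, lists and rule were chosen with earlier results of these data known. Alternatives were limma-voom 3.58.1, DESeq2 1.42.0, its size factors, no scaling, other filters, a replicate block, an FDR of 0.05, leaving out each library and, chosen after seeing the data, leaving out controls 3 and 4 and SAP97-cKO 2. C-terminal protein sequences were not analysed here. Plots were drawn with matplotlib 3.10.9.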

Additional observations from a re-analysis of the deposited data

Results flagged for a closer look

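In 11 of 88 groups of 4 libraries (44 members in each genotype) 1 library lay apart from the other three, by a gap beyond Dixon's 95% critical value, where chance gives about 1 in 20, or 4.4. Control 3 was apart as the highest control for Kcnip1 (1037 counts) and Kcnh8 (52.4) and as the lowest for Kcnv1 (1405). Control 4 was the lowest control for Kcnb2 (679) and Kcnd2 (4272), and control 1 was the highest for Kcnab2 (30533). SAP97-cKO 1 was apart as the highest of its group for Kcnh5 (269), Kcnh8 (26.5) and Kcng3 (87.6) and as the lowest for Kcnd3 (3900). SAP97-cKO 2 was the highest of its group for Kcnip3 (4933). The cause was not tested.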

How the results depend on the processing

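Of 256 fold changes recomputed (16 genes, 16 alternatives), 247 kept their direction and 9, in 4 genes, reversed. With no Kv gene called as the reported value, DESeq2 called 7, the replicate block 1 and edgeR with single libraries left out 0 to 8. The cause was not tested. The 8 members at an unadjusted p under 0.05 became 13 with no filter (12 of them higher, against 9.49% of all genes in either direction), 2 with controls 3 and 4 and SAP97-cKO 2 left out (fewer samples, against 8.45%), and 6 to 11 with single libraries left out (against 7.22% to 16.8%). Without SAP97-cKO 1, 10 of 11 were higher. Kcna4 and Kcnh3 were under that p in every setting. Kcna1 was -0.045 with no scaling. With the 3 libraries left out, Kcna2 was -0.0098 and Kcna5 -0.038. Leaving out single libraries gave -0.13 to 0.11 for Kcna1, -0.096 to 0.15 for Kcna2, -0.12 to 0.44 for Kcna5 and -0.045 to 0.16 for Kcnc1. Over all genes, edgeR called 35, limma-voom 49, DESeq2 1031, no scaling 85, no filter 104, the block 250, and 0 (without control 2, SAP97-cKO 3 or SAP97-cKO 4) to 1739 (without control 1).

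Whether the replicate numbers shared by both groups pair mice is not stated in the sources used here, and the values did not settle it. The correlations of same-numbered libraries were -0.0633, 0.207, 0.099 and 0.268 for numbers 1 to 4. Libraries numbered 2, 3 and 4 correlated best with their own number in both directions, and control 1 and SAP97-cKO 1 did not. The block called Kcnh3 alone among the members. Depth was nearly equal in all libraries, and counting error weighs most on the members with means under 100 counts (Kcna5, Kcnh4, Kcnh6, Kcnh8, Kcng3, Kcnq1).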
